A study of Mus musculus with 8 samples.

Results

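The genes examined here are 39 mouse genes of fatty acid synthesis, storage and oxidation, picked out by gene symbol from the 23420 entries of the count tables. All 39 were found in the tables of both sets, and 34 had a mean of at least 10 counts over the 8 libraries and were tested. The libraries were made from NIH3T3 cells, a mouse embryonic fibroblast line grown in bovine calf serum. In all of them the cells had been selected with puromycin for at least 1 week. The controls carried a scrambled short hairpin RNA (scrambled cells) and the other group carried short hairpin RNA against RPRD1B (knockdown cells), a protein that binds the tail of RNA polymerase II. There were 4 libraries per group, in 2 sets of counts: replicates 1 and 2 make up set 1 and replicates 3 and 4 make up set 2. How the sets differ, whether replicates were separate cultures and which hairpin was used are not stated in the labels, so the spread behind the p-values is that between libraries and may be technical. The series asks how expression differs between control and knockdown cells.

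Cells make fatty acids from citrate in the cytosol, by way of acetyl-CoA and malonyl-CoA, and then lengthen and desaturate them. Acyl-CoA synthetases activate fatty acids, which are stored as triglyceride in lipid droplets or carried into mitochondria by the carnitine palmitoyltransferases and shortened by beta-oxidation. SREBP factors drive many genes of synthesis, and the PPAR nuclear receptors drive many genes of uptake, storage and oxidation. Preadipocyte lines related to NIH3T3 store fat only after they are induced to differentiate.

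Depth ranged from 12311442 to 23223139 counts per library, the highest in RPRD1B replicate 4. Levels are given as CPM, the usual counts-per-library scale, taken relative to library totals after trimmed-mean scaling. Rprd1b itself stood at 39.5 to 44.4 CPM in the 4 scrambled libraries and at 22.5 to 28.0 in the 4 knockdown libraries, a log2 fold change of -0.75 ± 0.07 (SE) with an adjusted p of 4.14e-14. Adjusted p-values here and below are from the quasi-likelihood test of edgeR with Benjamini-Hochberg adjustment over all tested genes, and a gene was called under 0.05. The 7 fibroblast markers summed to 15916 to 16525 CPM. Of 9 adipocyte markers only Lipe, a lipase gene, passed the filter on low counts, and Plin1, Lep and Cebpa had no count in any library. Macrophage markers summed to 5.41 to 10.7 CPM, and endothelial, epithelial and muscle markers each to under 1 CPM.

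Levels between genes are compared here per kilobase of annotated exon. Scd2, a stearoyl-CoA desaturase that makes monounsaturated fatty acids, had the highest level per length of the 39 genes, at 155 CPM per kilobase (113 to 196 over the libraries). Fads1, a desaturase of polyunsaturated fatty acids, followed at 76.2 (71.7 to 81.3), then Scd1 at 63.4 (58.2 to 69.3) and the ATP-citrate lyase gene Acly at 47.6 (35.3 to 58.9). The ranges of Fads1 and Scd1 did not overlap, while that of Acly reached into that of Scd1. Acadl, a mitochondrial acyl-CoA dehydrogenase, had the highest level per length among the oxidation genes, at 41.8 (38.8 to 45.2), within the range of Acly. Of the 2 acetyl-CoA carboxylase genes, Acaca stood at 3.68 CPM per kilobase and Acacb at 0.178, with no overlap between their libraries. These lengths are unions of exons in GENCODE M21, which may differ from the transcripts these cells use.

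**Figure D1:**
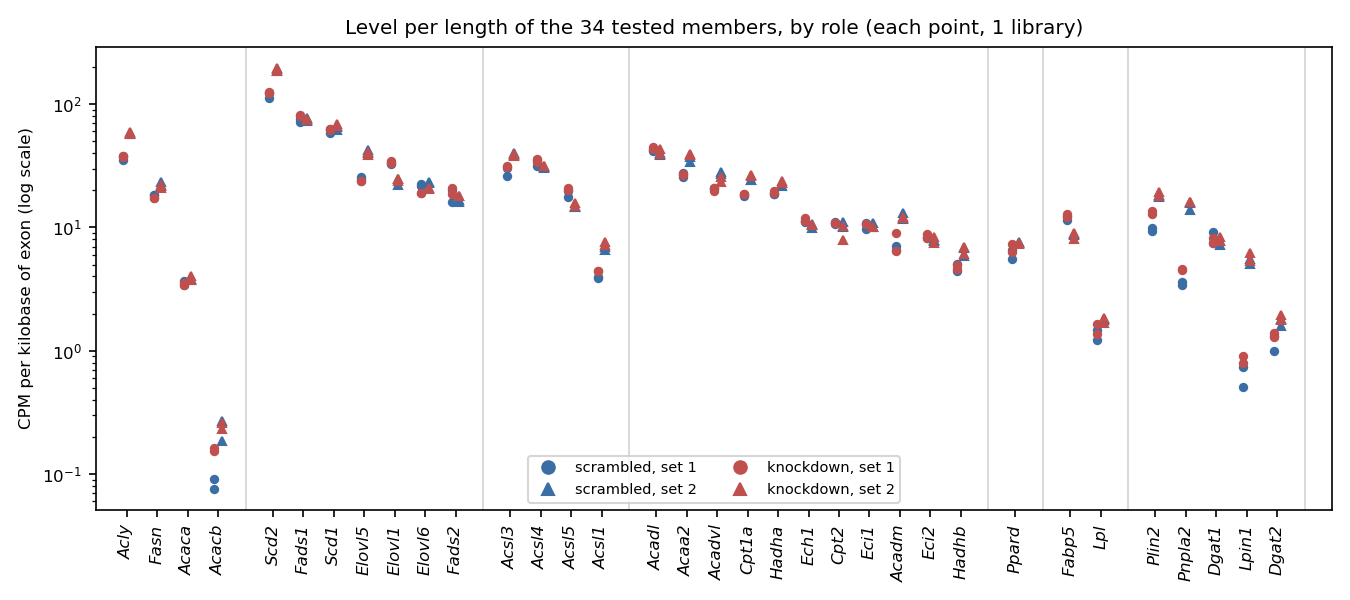
Level of each tested gene in each library as CPM per kilobase of exon (log axis), ordered within roles, with circles for set 1, triangles for set 2, blue for scrambled and red for knockdown cells. Scd2 lies highest, at 113 to 196, and Acacb lowest, at 0.0759 to 0.269, and for Lpin1 and Pnpla2 the triangles lie far above the circles.

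The 5 genes left untested were at or near 0. Cd36, the fatty acid translocase of the plasma membrane, had 0 counts in all 8 libraries, a limit of 0.129 to 0.244 CPM depending on the library (3 counts of its total, for counting error only). The elongase Elovl7 had 1 count in each of 2 libraries, and Ppara, the PPAR of liver oxidation, had 0 to 2 counts per library. Pparg, the master regulator of fat cell differentiation, had 0 to 5 counts, and the fatty acid binding protein Fabp4, an adipocyte gene, had 3 to 13. Over the 8 libraries their groups overlapped, and at this depth no difference was detectable. Of the PPAR genes only Ppard was well expressed, at 41.4 to 57.2 CPM.

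Over both sets, 2 of the 34 tested genes were called in the knockdown: the elongase gene Elovl6 fell and the lipid droplet gene Plin2 rose. Among all 11723 tested genes 7.57% were called, 3.97% higher and 3.61% lower, so the 2 calls (5.88%) are near the background share. The 32 other genes did not pass, at adjusted p of 0.0865 (Acsl1) to 0.980 (Dgat1), and 11 of the 34 (32.4%) had an unadjusted p under 0.05, against 19.5% of all tested genes. In set 1 alone 10 of the 34 (29.4%) had such a p, against 17.1% of all tested genes. Set 2 alone gave 4 of the 34 (11.8%), below the 16.5% of all tested genes. Fitted changes were small, with a median log2 fold change of 0.05 against 0.00 for all tested genes, and 28 of the 34 lay above 0 and 6 below, against 50.8% and 49.2% of all tested genes. Their standard errors ran from 0.03 to 0.27. Fitted alone, set 1 had 27 of the 34 above 0, against 5860 of 11585 tested genes. Set 2 alone had 22 of the 34 above 0, against 5871 of 11779. Over both sets without RPRD1B replicate 2, 24 of the 34 lay above 0. In each set the knockdown libraries lay entirely above the scrambled ones for 5 genes (Acsl1, Acsl5, Cpt1a, Hadha and Pnpla2) and entirely below them for 1 (Elovl6). Among all tested genes 16.4% were separated in this way, 8.23% upward and 8.18% downward.

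Elovl6 encodes the elongase that turns palmitate into stearate (chromosome 3, 129532355 to 129638495, mm10). In set 1 it stood at 143 and 139 CPM in scrambled replicates 1 and 2 and at 121 and 121 CPM in RPRD1B replicates 1 and 2. In set 2 the scrambled libraries held 147 and 151 CPM and the knockdown libraries 134 and 132. The highest knockdown library was thus below the lowest scrambled one. The level fell by 12.3% over both sets, a log2 fold change of -0.19 ± 0.04 (adjusted p = 0.000411), and the call held when any of the 8 libraries was left out (adjusted p 0.00105 to 0.00368). Without the set term it was not called (adjusted p = 0.804). Fitted alone, set 1 gave -0.22 ± 0.06 (adjusted p = 0.00576) and set 2 gave -0.16 ± 0.05 (adjusted p = 0.0388), and these effects differed by 0.06 ± 0.07, which was not called (adjusted p = 0.861). The calls within a set are less firm: in DESeq2 neither passed (adjusted p 0.0990 in set 1 and 0.317 in set 2). The set 1 call was lost without scrambled replicate 1 (0.0508), RPRD1B replicate 1 (0.181) or RPRD1B replicate 2 (0.150), and the set 2 call without any of its 4 libraries (0.119 to 0.301). Permuting the groups inside each set gave an exact two-sided p of 0.0556, the smallest that the 36 assignments allow. Acsl1, Acsl5, Cpt1a, Hadha and Pnpla2, which were not called, reached the same p, and Plin2 gave 0.111. The authors' deposited table lists a log2 fold change of -0.21 in set 1 (q = 0.00816) and of -0.16 in set 2 (q = 0.156).

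Plin2 encodes perilipin 2, the coat protein of lipid droplets in most cells (chromosome 4, 86648386 to 86670060). Scrambled replicates 1 and 2 held 34.9 and 32.8 CPM and RPRD1B replicates 1 and 2 held 47.8 and 45.5. In set 2 the scrambled libraries held 64.7 and 62.2 CPM and the knockdown libraries 67.5 and 63.6. The groups were apart in set 1 and overlapped in set 2, where every library lay above all of set 1. Set 1 alone gave 0.46 ± 0.09 on the log2 scale (adjusted p = 3.23e-05), a rise of 38.0%, and set 2 alone 0.04 ± 0.07 (adjusted p = 0.858). The difference between the sets was -0.42 ± 0.11 and did not pass (adjusted p = 0.0777), though it did when genes of low count were kept in (adjusted p = 0.0396). The alternatives gave 0.0396 to 0.343, except DESeq2, which gave Plin2 no adjusted p for this difference. For this difference 0.247% of all tested genes were called, 0.171% higher and 0.0768% lower in set 2. The value over both sets, 0.23 ± 0.06 (adjusted p = 0.0153), rests on set 1: leaving out scrambled replicate 1, scrambled replicate 2, RPRD1B replicate 1 or RPRD1B replicate 2 ended the call (0.0773, 0.0983, 0.0785 and 0.0705). The authors' deposited table lists 0.45 for set 1 (q = 0.000243) and 0.04 for set 2 (q = 0.961). In bulk RNA, more cells with a transcript and more transcript per cell cannot be told apart.

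**Figure D2:**
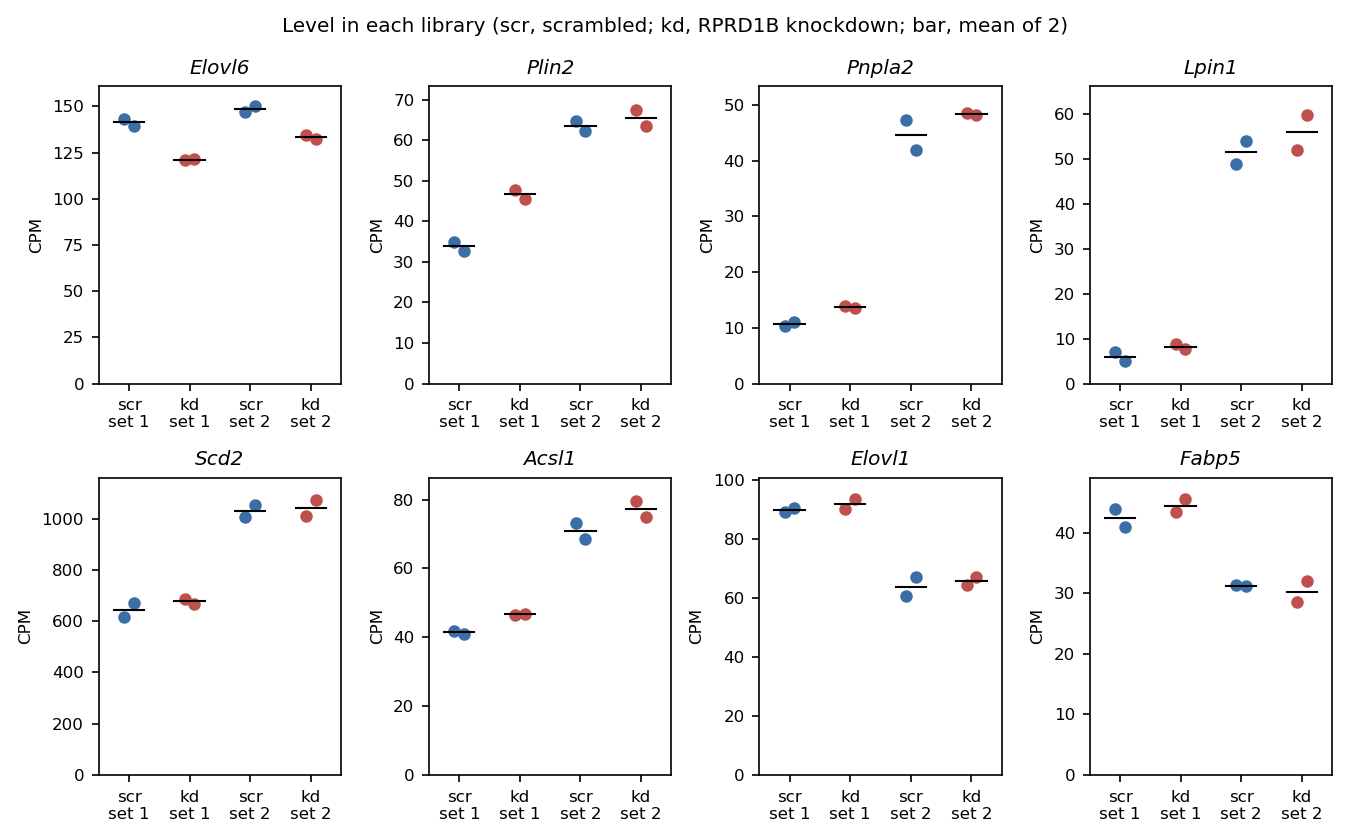
CPM of 8 genes in each library (points) with the mean of the 2 libraries (bar), by group and set, on axes that start at 0. Elovl6 is lower in knockdown libraries of both sets, Plin2 is higher in those of set 1, and Pnpla2 and Lpin1 differ between the sets by more than between the groups.

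The stretches upstream of the annotated starts are shown for these genes and for Lpin1 and Pnpla2, which differed most between the sets. Each is the 250 bases before the RefSeq start in GRCm38.p6, read 5′ to 3′ on the strand of the gene. The regions are chr3:129532136-129532385 (plus strand) for Elovl6, chr4:86670060-86670309 (minus strand) for Plin2, chr12:16610967-16611216 (minus strand) for Lpin1 and chr7:141454938-141455187 (plus strand) for Pnpla2. Capitals mark matches to any of 5 motifs, searched on both strands.
Elovl6: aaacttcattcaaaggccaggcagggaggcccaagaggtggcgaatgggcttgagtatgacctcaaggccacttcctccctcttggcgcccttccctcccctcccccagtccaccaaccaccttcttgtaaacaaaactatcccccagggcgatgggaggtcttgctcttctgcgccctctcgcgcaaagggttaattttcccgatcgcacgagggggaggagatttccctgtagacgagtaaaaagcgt
Plin2: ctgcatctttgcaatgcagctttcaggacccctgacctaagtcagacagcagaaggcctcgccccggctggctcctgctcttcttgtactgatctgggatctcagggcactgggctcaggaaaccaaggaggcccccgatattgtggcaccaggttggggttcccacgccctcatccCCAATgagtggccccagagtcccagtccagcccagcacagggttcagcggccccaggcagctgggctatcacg
Lpin1: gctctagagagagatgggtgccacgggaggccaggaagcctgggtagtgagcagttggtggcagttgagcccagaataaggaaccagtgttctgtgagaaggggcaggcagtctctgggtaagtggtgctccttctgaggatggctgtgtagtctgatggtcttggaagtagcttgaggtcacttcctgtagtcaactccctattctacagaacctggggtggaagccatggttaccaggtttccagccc
Pnpla2: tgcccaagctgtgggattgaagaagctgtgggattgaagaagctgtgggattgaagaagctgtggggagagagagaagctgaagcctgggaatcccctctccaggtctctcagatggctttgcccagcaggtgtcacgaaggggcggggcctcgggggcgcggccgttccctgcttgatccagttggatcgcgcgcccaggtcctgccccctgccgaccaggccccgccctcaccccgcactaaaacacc
The motifs were TCACNCCAC, bound by SREBP factors, the direct repeat bound by PPAR with RXR (AGGNCA repeated after 1 base of any kind), the E-box CACGTG, the NF-Y box CCAAT and the TATA box TATAAA. In these 4 windows the only match was 1 CCAAT in that of Plin2, 73 bases upstream of the start. RefSeq promoters were at hand for 30 of the 39 genes. Among these, the SREBP motif was found for Acsl1 alone, the PPAR repeat for Elovl1 alone and the E-box for Elovl5 alone, against 1.22%, 0.40% and 6.86% of the 27025 genes with a RefSeq promoter (1.05%, 0.34% and 6.02% of all 32851 windows). The NF-Y box was found for 13 of the 30 genes (43.3%, against 37.5% of all genes with a promoter) and the TATA box for Acacb and Pparg (6.7%, against 14.3%). A match describes these letters in this window and is not evidence of binding. The windows of Hadha and Hadhb, which code for the subunits of 1 enzyme complex and are transcribed away from each other, share 228 bases.

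None of the 4 genes of de novo synthesis was called in the knockdown, over both sets or in either set. Fasn, the fatty acid synthase, stood at 199.9 and 202 CPM in the scrambled and 188 and 189 in the knockdown libraries of set 1, and at 236 and 255 against 227 and 244 in set 2. The groups were apart in set 1 and overlapped in set 2, and the log2 value over both was -0.07 ± 0.04 (adjusted p = 0.237). Acly was at 0.02 ± 0.03 and Acaca, the cytosolic acetyl-CoA carboxylase, at 0.01 ± 0.05. Acacb, the carboxylase of the outer mitochondrial membrane, had 10 to 24 counts per library in set 1, with 0.879 and 0.731 CPM in scrambled and 1.48 and 1.58 in knockdown cells. In set 2 its groups overlapped, and the value over both was 0.38 ± 0.27 (adjusted p = 0.486), the widest error of the 34.

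Of the 7 tested genes of elongation and desaturation 1 fell, Elovl6, and 0 rose. Elovl5, which elongates polyunsaturated fatty acids, stood at -0.07 ± 0.04 and Elovl1, which makes very long saturated chains, at 0.04 ± 0.05. The stearoyl-CoA desaturases Scd1 and Scd2 were at 0.06 ± 0.03 and 0.04 ± 0.03. Fads1 and Fads2 carry out successive desaturations of polyunsaturated fatty acids. Fads1 had 345 and 365 CPM in the scrambled and 386 and 391 in the knockdown libraries of set 1, and its value of 0.13 ± 0.04 there missed the threshold (adjusted p = 0.0505), though it was called with no filter on low counts and with the replicate block. In set 2 its groups overlapped, at 0.00 ± 0.04 (adjusted p = 0.998). Fads2 stood at 0.14 ± 0.06 over both sets (adjusted p = 0.112) and was called only without scrambled replicate 2, whose 65.9 CPM lay above the 52.6, 55.2 and 52.5 of the other scrambled libraries (adjusted p = 0.0150, with values up to 1.00 over the alternatives).

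The 4 acyl-CoA synthetase genes, which activate long-chain fatty acids, all had fitted values above 0, from 0.05 to 0.14, and 0 were called. Acsl1 stood at 41.8 and 41.1 CPM in scrambled and 46.6 and 46.7 in knockdown cells of set 1, and at 73.1 and 68.5 against 79.6 and 75.0 in set 2. Its groups were apart in each set, and the value of 0.14 ± 0.05 did not pass the test (adjusted p = 0.0865). Acsl5 also separated in each set, at 0.10 ± 0.05 (adjusted p = 0.190). Acsl3, found on lipid droplets, was at 0.15 ± 0.06 in set 1 and -0.03 ± 0.05 in set 2, and the arachidonate-preferring Acsl4 was at 0.05 ± 0.04 over both.

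Among the 11 genes of mitochondrial oxidation 0 were called, with fitted values from -0.11 to 0.09 and 8 above 0. Cpt1a, which forms the acylcarnitines that enter mitochondria, stood at 136 and 139.9 CPM in scrambled and 144 and 143 in knockdown cells of set 1, and at 187 and 187 against 201 and 204 in set 2. Its groups did not overlap in either set, but 0.09 ± 0.04 did not pass (adjusted p = 0.154). Cpt2, the enzyme of the inner membrane, was lowest in 1 knockdown library of set 2 (18.9 CPM in replicate 3), while the other 7 libraries lay between 24.1 and 26.6 CPM. Acadvl, the very-long-chain acyl-CoA dehydrogenase, was at -0.11 ± 0.05 (adjusted p = 0.228), and its exons share 42.9% of their bases with Dvl2 on the opposite strand, so reads of the pair may be mixed. Smaller shares with other counted genes hold for Acsl5 (Zdhhc6, 8.3%, opposite strand), Acsl3 (Utp14b, 5.6%, same strand), Elovl1 (Cdc20, 1.9%, opposite strand) and Scd2 (Mir5114, 1.1%, same strand). Acadl and the medium-chain Acadm were at 0.08 ± 0.05 and 0.05 ± 0.07. Hadha and Hadhb, the subunits of the mitochondrial trifunctional protein, were at 0.05 ± 0.04 and 0.04 ± 0.07, and the thiolase Acaa2 at 0.07 ± 0.06. The isomerases Ech1, Eci1 and Eci2, which handle unsaturated acyl chains, were at 0.05 ± 0.07, -0.01 ± 0.08 and 0.03 ± 0.06.

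Uptake genes gave no call. Lpl, the lipoprotein lipase, stood at 12.8 to 19.2 CPM, with 0.05 ± 0.09 over both sets, and the binding protein Fabp5 at 0.02 ± 0.06. The receptor Ppard was at 0.06 ± 0.06. All 5 genes of storage and lipolysis had fitted values above 0, and Plin2 was the 1 called. Pnpla2, the adipose triglyceride lipase that begins lipolysis, had 10.4 and 11.0 CPM in scrambled and 14.0 and 13.6 in knockdown cells of set 1, and 47.3 and 41.9 against 48.5 and 48.2 in set 2. The groups were apart in each set, at 0.19 ± 0.07 (adjusted p = 0.100). Lpin1, a phosphatidate phosphatase of triglyceride synthesis, was at 0.20 ± 0.08 (adjusted p = 0.126), and Dgat1 and Dgat2, which add the last acyl chain to triglyceride, at 0.01 ± 0.08 and 0.17 ± 0.16. Pnpla2 was called without scrambled replicate 3 (adjusted p = 0.0342) and Lpin1 without RPRD1B replicate 3 (0.0462), out of 0.0342 to 1.00 and 0.0462 to 1.00 over their alternatives.

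Within set 1 alone 1 gene rose, Plin2, and 1 fell, Elovl6, where 4.86% of 11585 tested genes were called, 2.68% higher and 2.18% lower. Without scrambled replicate 2, 6 rose (Scd2, Fads1, Fads2, Acsl3, Ppard and Plin2), where 2.82% of 11596 tested genes were called higher. Within set 2 alone 0 rose and 1 fell, Elovl6, where 5.19% of 11779 were called, 2.55% higher and 2.64% lower. The median log2 value was 0.07 in set 1 and 0.04 in set 2, and 25 of 34 genes had the same sign in both. No gene of the 34 was called for the difference between the sets in edgeR with the filter on low counts, with 3 (8.82%, against 8.64% of all tested genes) at an unadjusted p under 0.05. In DESeq2 0 were called, but Plin2 had no adjusted p there and so could not be. With no filter Plin2 was called, as given above.

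**Figure D3:**
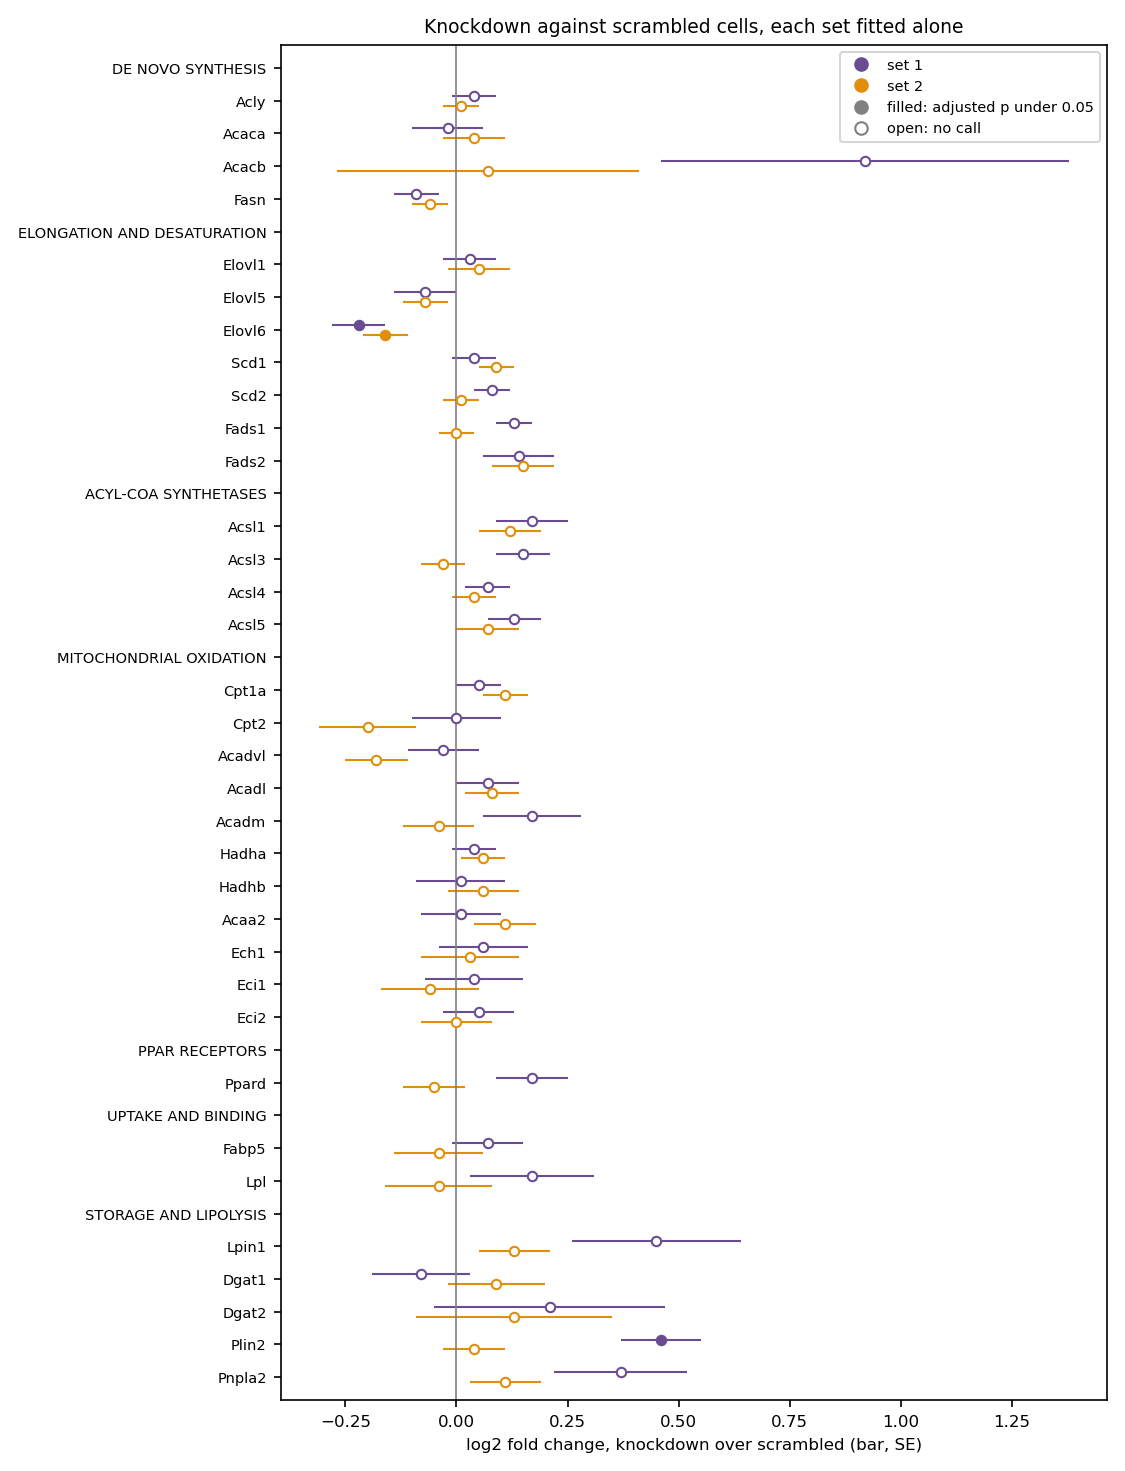
Knockdown against scrambled cells on the log2 scale (horizontal axis, bars are SE) for the 34 tested genes by role, with set 1 in purple, set 2 in orange and called genes filled. Elovl6 is filled in both sets and Plin2 in set 1 alone, and Acacb in set 1, at 0.92 ± 0.46, has the widest bar.

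Other genes of these pathways were read from 5 lists of 121 genes, of which 95 were tested. In the knockdown 6 rose and 0 fell over both sets, with a median of 0.02. That is 6.32% of the 95 higher and 0 lower, against 3.97% higher and 3.61% lower among all tested genes (7.57% in either direction). The lists below hold too few genes to read their shares closely. Ppargc1a, a coactivator of PPARs and of mitochondrial genes, rose from 12.6 and 16.0 CPM to 19.6 and 23.0 in set 1 and from 57.2 and 61.0 to 81.0 and 70.3 in set 2. Its log2 fold change was 0.42 ± 0.07 (adjusted p = 8.53e-06). Slc27a1, a fatty acid transport protein, rose from 4.25 and 3.22 CPM to 7.87 and 7.70 in set 1 and from 10.3 and 12.1 to 17.2 and 19.7 in set 2, a change of 0.85 ± 0.12 (adjusted p = 1.63e-07). Both were also called within each set, but neither was called over both sets without the set term.

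By list, 2 of 17 regulators of lipid synthesis rose, Ppargc1a and Mid1ip1, a protein that promotes acetyl-CoA carboxylase activity (0.36 ± 0.12, adjusted p = 0.0497). Of 15 further genes of synthesis, elongation and desaturation 1 rose, Tecr, the reductase that closes the elongation cycle, at 0.14 ± 0.03 (adjusted p = 0.00235). Of 31 further oxidation genes 1 rose, the carnitine acetyltransferase Crat, at 0.25 ± 0.06 (adjusted p = 0.00611). Of 12 further uptake and activation genes 2 rose, Slc27a1 and the acyl-CoA binding protein Dbi (0.11 ± 0.04, adjusted p = 0.0492), and of 20 further storage genes 0. Cholesterol synthesis and uptake, a neighbouring SREBP pathway, had 2 of 22 genes higher (9.09%) and 0 lower, with a median of 0.00. Among all tested genes 3.97% were higher and 3.61% lower. The 2 cholesterol genes were Sqle at 0.10 ± 0.03 (adjusted p = 0.0390) and Dhcr7 at 0.27 ± 0.08 (adjusted p = 0.0224). The calls of Mid1ip1, Dbi and Dhcr7 were lost under DESeq2 (0.129, 0.105 and 0.0582). Those of Mid1ip1 and Dbi were also lost with DESeq2 size factors (0.0501 and 0.0541) and upper-quartile scaling (0.0528 and 0.0613). Sqle lost its call under upper-quartile scaling (0.0529), and Dbi and Sqle with the replicate block (0.0567 and 0.0630). Of the 8 fits without a single library, Mid1ip1 lost the call in 6, Dbi in 7, Dhcr7 in 4 and Sqle in 6. The adjusted p there ran up to 0.306, 0.239, 0.115 and 0.155. Without the set term none of the genes named from these lists was called.

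**Figure D4:**
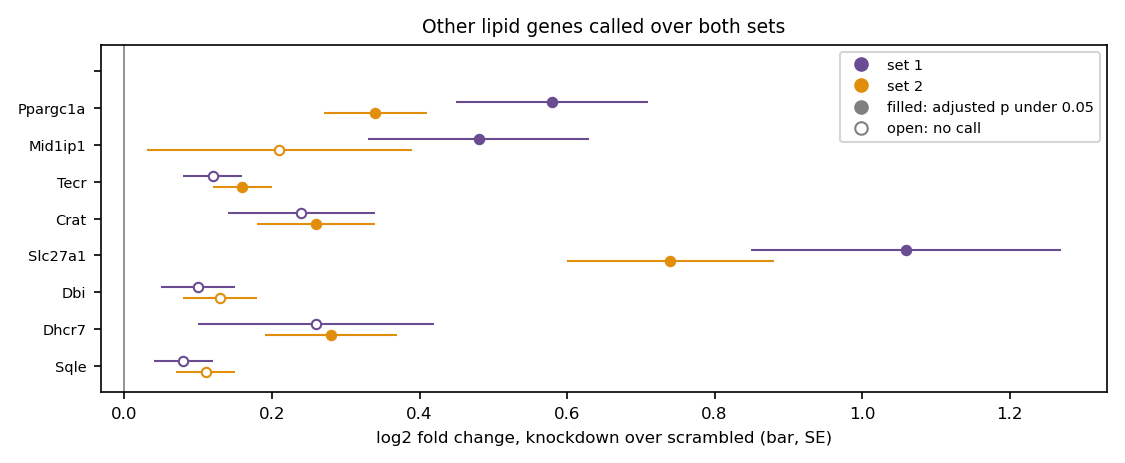
Knockdown against scrambled cells on the log2 scale (bars are SE) in set 1 (purple) and set 2 (orange) for the 8 genes of other lipid lists called over both sets. All lie above 0, and Slc27a1 and Ppargc1a are filled, that is called, in both sets.

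For 31 of the 34 genes the fitted difference between the sets was larger than that between the groups, the others being Elovl6, Fads1 and Fads2. Among all 11723 tested genes the median absolute log2 value was 0.31 between the sets and 0.08 between the groups. For the 34 genes it was 0.36 and 0.06, so the larger difference between sets is not particular to them. With the group as a term, 22 of the 34 were higher and 5 lower in set 2 than in set 1, where 65.9% of all tested genes were called, 33.0% higher and 32.9% lower. The median log2 difference was 0.28, against -0.01 for all tested genes. All 4 libraries of set 2 lay above all 4 of set 1 for 19 of the 34 genes (28.1% of all tested genes) and below them for 4 (27.9%), where 56.0% of all tested genes did either. The sets were deposited in separate tables, and anything that differed between them in culture, library or counting cannot be told apart here.

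The 2 largest differences were in storage and lipolysis, in Lpin1 and Pnpla2. Lpin1 stood at 7.10, 4.90, 8.71 and 7.63 CPM in scrambled replicates 1 and 2 and RPRD1B replicates 1 and 2, and at 48.8, 54.0, 52.0 and 59.7 in replicates 3 and 4 of the same groups. That is a 7.58-fold higher level in set 2, or 2.92 ± 0.09 on the log2 scale (adjusted p = 6.89e-38), with no overlap. Pnpla2 was 3.79-fold higher, 1.92 ± 0.08 (adjusted p = 1.25e-33), and Plin2 was at 0.68 ± 0.06 (adjusted p = 1.25e-13). Dgat2 stood at 3.07 to 4.28 CPM in set 1 and 4.88 to 5.96 in set 2 (0.50 ± 0.16, adjusted p = 0.00538), while Dgat1 was not called (-0.06 ± 0.08, adjusted p = 0.511). The 9 adipocyte markers summed to 2.93 to 3.82 CPM in set 1 and 8.17 to 10.9 in set 2, most of it Lipe, the hormone-sensitive lipase, which was higher by 1.69 ± 0.16 (adjusted p = 2.53e-15). The 5 macrophage markers summed to 5.41 to 6.88 CPM in set 1 and 7.63 to 10.7 in set 2, but they did not move together. Only 2 of them were tested, 1 called higher in set 2 at 0.71 and 1 not called at -0.03, and Emr1 had no count in any library. The part of other cells or of a change of cell state in these differences was not tested. Ppargc1a was higher in set 2 as well, by 1.92 ± 0.07 (adjusted p = 5.93e-32).

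All 4 genes of de novo synthesis were higher in set 2. Acly stood at 187 to 201 CPM in set 1 and 302 to 311 in set 2 (0.64 ± 0.03, adjusted p = 9.81e-27). Fasn stood at 188 to 202 CPM in set 1 and 227 to 255 in set 2 (0.31 ± 0.04, adjusted p = 9.71e-12). Acaca stood at 58.3 to 63.3 CPM in set 1 and 63.6 to 68.8 in set 2 (0.12 ± 0.05, adjusted p = 0.0354), and its call was lost under upper-quartile scaling (0.0950), in DESeq2 (0.0535) and without scrambled replicate 2 or 4 or RPRD1B replicate 1, 2 or 4 (0.0577 to 0.173). Acacb stood at 0.731 to 1.58 CPM in set 1 and 1.77 to 2.59 in set 2 (0.96 ± 0.27, adjusted p = 0.00162). No value of set 1 overlapped with one of set 2 for these 4 genes, where 28.1% of all tested genes lay wholly higher in set 2. In the cholesterol list 19 of 22 genes were higher in set 2 and 0 lower, against 33.0% higher and 32.9% lower among all tested genes. A cause shared with the genes above was not tested.

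Elongases and desaturases split. Scd2 stood at 617 to 686 CPM in set 1 and 1007 to 1072 in set 2 (0.65 ± 0.03, adjusted p = 3.48e-29), and Elovl5 at 83.1 to 89.6 CPM in set 1 and 135 to 149.9 in set 2 (0.73 ± 0.04, adjusted p = 4.67e-25). Elovl1 was lower in set 2 and stood at 89.2 to 93.5 CPM in set 1 and 60.6 to 67.1 in set 2 (-0.49 ± 0.05, adjusted p = 2.01e-14). None of these 3 overlapped between the sets, where 56.0% of all tested genes were apart in 1 direction or the other. Scd1 stood at 285 to 307 CPM in set 1 and 303 to 339 in set 2 (0.10 ± 0.03, adjusted p = 0.00540), with overlap. Elovl6 stood at 121 to 143 CPM in set 1 and 132 to 151 in set 2 (0.10 ± 0.04, adjusted p = 0.0155) and Fads2 at 52.6 to 69.1 CPM in set 1 and 52.5 to 59.8 in set 2 (-0.13 ± 0.06, adjusted p = 0.0354), both with overlap. The call of Elovl6 was lost under upper-quartile scaling (0.0644). That of Fads2 was lost in DESeq2 (0.0881) and without scrambled replicate 2 or 4 or RPRD1B replicate 2, 3 or 4 (0.0631 to 0.323), with a value of -0.07 without scrambled replicate 2. Fads1 was not called (-0.04 ± 0.03, adjusted p = 0.295). Whether reads shared by the similar Scd1 and Scd2 transcripts were split between them is not stated, so their values carry that uncertainty.

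The acyl-CoA synthetases also went both ways. Acsl1 stood at 41.1 to 46.7 CPM in set 1 and 68.5 to 79.6 in set 2 (0.75 ± 0.05, adjusted p = 1.33e-20), and Acsl3 at 114 to 136 CPM in set 1 and 166 to 176 in set 2 (0.40 ± 0.04, adjusted p = 1.55e-12). Acsl5 was lower in set 2 and stood at 86.0 to 102 CPM in set 1 and 71.3 to 77.2 in set 2 (-0.37 ± 0.05, adjusted p = 1.23e-10). Acsl4 stood at 169 to 192 CPM in set 1 and 164 to 171 in set 2 (-0.13 ± 0.04, adjusted p = 0.00205), the only 1 of the 4 with overlap between the sets. Of the uptake genes Fabp5 was lower and stood at 41.0 to 45.5 CPM in set 1 and 28.6 to 32.0 in set 2 (-0.49 ± 0.06, adjusted p = 3.12e-10). Lpl was higher and stood at 12.8 to 17.2 CPM in set 1 and 17.7 to 19.2 in set 2 (0.31 ± 0.09, adjusted p = 0.00246), and the receptor gene Ppard stood at 41.4 to 54.8 CPM in set 1 and 54.7 to 57.2 in set 2 (0.22 ± 0.06, adjusted p = 0.000996), with overlap.

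Of the 11 oxidation genes 6 were higher in set 2 and 0 lower, where 33.0% of all tested genes were called higher and 32.9% lower. Acadm stood at 25.3 to 35.1 CPM in set 1 and 46.0 to 51.2 in set 2 (0.75 ± 0.07, adjusted p = 3.73e-12), and Cpt1a at 136 to 144 CPM in set 1 and 187 to 204 in set 2 (0.47 ± 0.04, adjusted p = 1.95e-18). Acaa2 stood at 39.2 to 41.6 CPM in set 1 and 51.7 to 59.8 in set 2 (0.48 ± 0.06, adjusted p = 1.56e-11), and Hadhb at 29.4 to 33.3 CPM in set 1 and 38.7 to 45.9 in set 2 (0.43 ± 0.07, adjusted p = 3.47e-08). Acadvl stood at 52.6 to 56.1 CPM in set 1 and 62.6 to 75.1 in set 2 (0.34 ± 0.05, adjusted p = 3.25e-08), and Hadha at 164 to 172 CPM in set 1 and 190.4 to 207 in set 2 (0.26 ± 0.04, adjusted p = 2.10e-09). None of these 6 overlapped between the sets. Among all tested genes 28.1% lay wholly higher in set 2 and 27.9% wholly lower. The genes not called were Cpt2, Acadl, Ech1, Eci1 and Eci2, at -0.14 to -0.02. Of these Ech1 lay wholly lower in set 2, at 25.2 to 27.2 CPM in set 1 and 22.4 to 24.4 in set 2 (-0.13 ± 0.07, adjusted p = 0.109). Acadl was called under upper-quartile scaling (adjusted p = 0.0159) and without RPRD1B replicate 4 (0.0275), and Cpt2, at -0.19, without scrambled replicate 3 (0.0499).

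**Figure D5:**
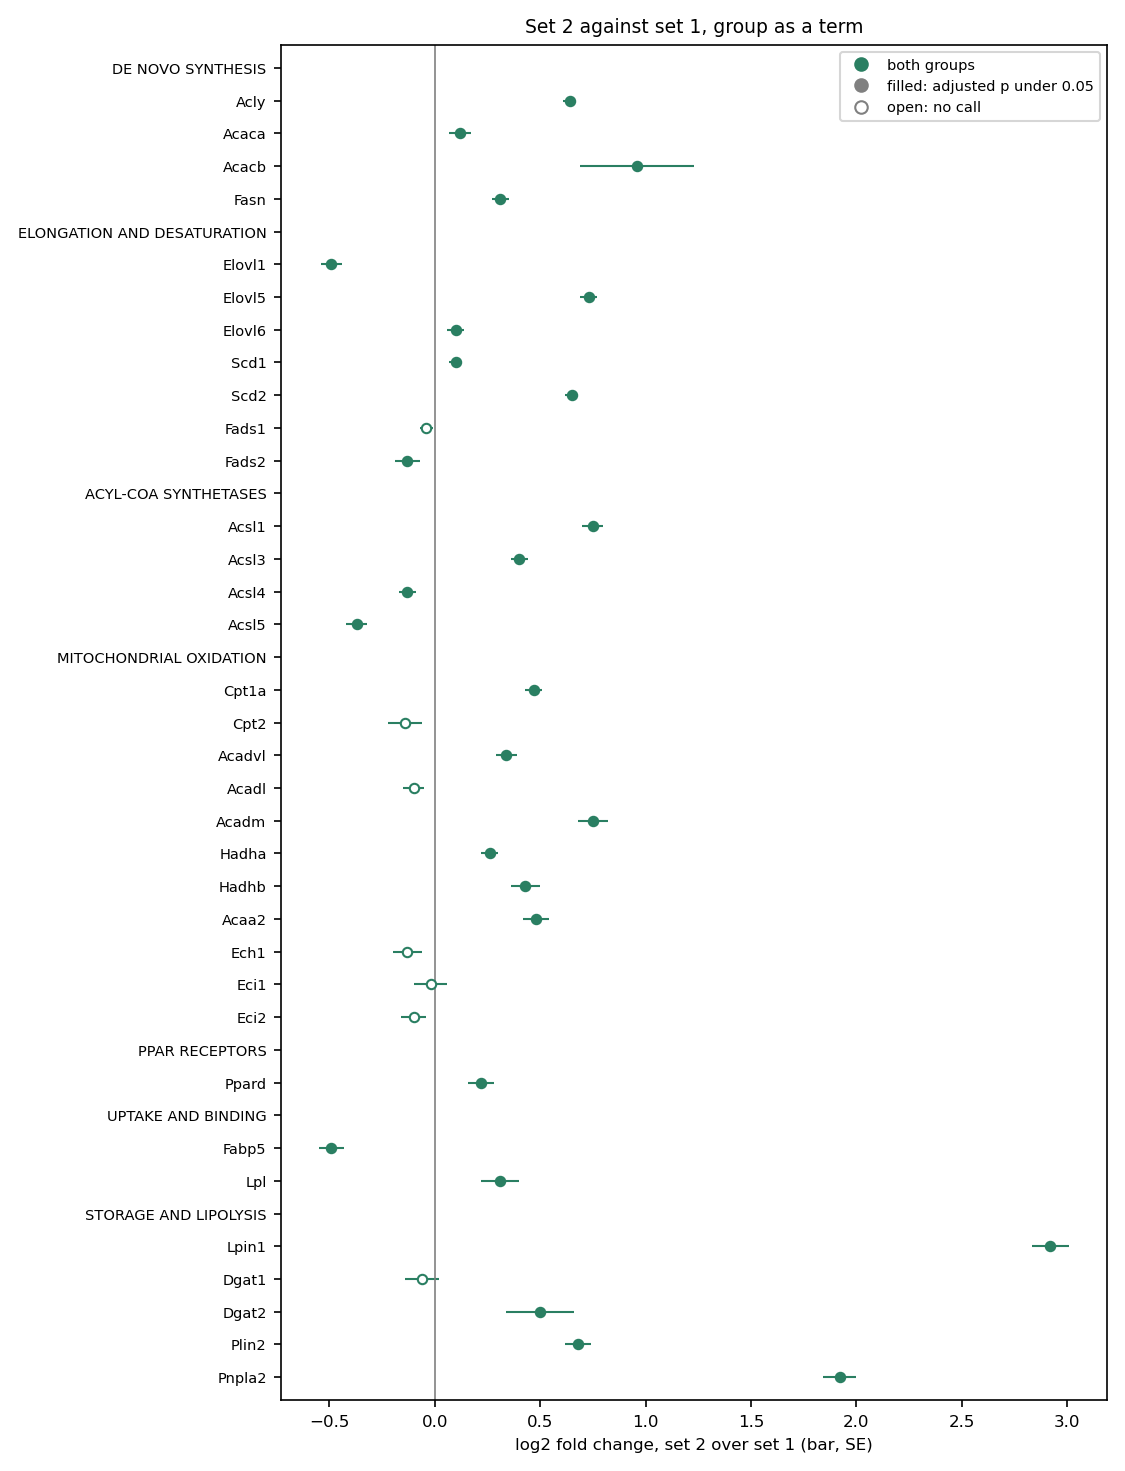
Log2 fold change of set 2 over set 1 (bars are SE) for the 34 tested genes by role, with the group as a term and called genes filled. Lpin1 at 2.92 and Pnpla2 at 1.92 stand far to the right, and Elovl1 and Fabp5, both at -0.49, lie farthest to the left.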

How the data were processed

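The deposited raw counts per gene are whole numbers the authors made from RNA-seq reads, with genome build mm10 per the submitters' processing notes; no source used here names the aligner, counter, annotation or strand setting. The authors' deposited comparison table of each set also holds a mean count signal per gene, which was not used, a log2 fold change with its standard error and a q-value.

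Genes with a mean of at least 10 counts were tested with edgeR 4.0.16 (R 4.3.3; limma 3.58.1; robust quasi-likelihood, trimmed-mean scaling, called at an adjusted p under 0.05), over both sets with a set term, in each set, for the difference between sets, and between sets with a group term. SE is the log2 fold change divided by the root of F. The alternatives included DESeq2 1.42.0. Scripts were tested on simulated data in which most genes did not differ between the sets, unlike here. That test checks the code and gives no error rate for these libraries. Same-numbered libraries did not deviate together (correlations 0.0359 in set 1 and -0.0553 in set 2), and the main fits did not pair them. Whether same-numbered libraries were handled together is not stated, and a single correlation per set cannot tell. The total count per library was 12311442 to 23223139. The 39 genes and the other lists were chosen with earlier results of these data known. All 39 are accounted for, those called in any fit with values, and from other lists up to 4 genes called over both sets with the smallest p.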

Additional observations from a re-analysis of the deposited data

Results flagged for a closer look

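Among the tested genes, 70 groups of 4 libraries were examined for a library far from the other 3, and 1 was found. In the knockdown group, Ppard stood at 47.1 CPM in RPRD1B replicate 1 against 54.7 to 55.9 CPM in the other 3 knockdown libraries. The gap took up 0.859 of the whole range, above the 95% critical value of Dixon's test for 4 samples. Chance gives such a result in about 1 in 20 groups of 4 like libraries. These groups each span both sets, which did not overlap for many of the 34 genes (set 2 above for 19 and below for 4), so that share does not apply closely here.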

How the results depend on the processing

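Over both sets, 302 genes were called higher in DESeq2 and 18 genes without the set term (12 higher, 6 lower), with 0 of the 39 genes higher and 0 lower in the latter; leaving out single libraries gave 0 to 2 higher. In set 1, genes called numbered 113 to 571 without single libraries (70 to 327 higher, 40 to 244 lower), with the fewest without RPRD1B replicate 1, and 143 in DESeq2 (81 higher, 62 lower); of the 39 genes, 1 to 6 were higher and 0 to 1 lower without single libraries, 2 were higher with no filter (Plin2 and Fads1), and 0 were lower in DESeq2. In set 2 they numbered 273 to 355 (129 to 191 higher, 141 to 192 lower) and 177 in DESeq2 (87 higher, 90 lower), and the call of Elovl6 was lost with no filter (0.0506) and in DESeq2, leaving 0 lower. With the replicate block 2 of the 39 genes were higher in set 1 (Plin2 and Fads1) and 0 lower in set 2 (Elovl6, adjusted p = 0.0604), and it changed no other call of the 39 genes. The difference between sets gave 50 genes with no filter (23 lower, of the 39 genes 1, Plin2, at -0.43), 3 in DESeq2 (3 higher, 0 lower) and 7 to 53 without single libraries (5 to 24 higher, 2 to 29 lower). Leaving out single libraries changed the sign over both sets of Acly (-0.00 to 0.04), Acaca (-0.02 to 0.04), Acsl3 (-0.01 to 0.08), Acadm (-0.05 to 0.11), Hadhb (-0.02 to 0.07), Eci1 (-0.05 to 0.03), Eci2 (-0.00 to 0.06), Ppard (-0.01 to 0.09), Fabp5 (-0.01 to 0.05), Lpl (-0.02 to 0.10) and Dgat1 (-0.04 to 0.08), none of them called, and between sets of Eci1 (-0.06 to 0.00) and Dgat1 (-0.11 to 0.01). The cause of these shifts was not tested. The other scalings shifted the median of all genes by less than 0.1. Small changes were not detectable at the low counts of Acacb, Dgat2 and the 5 untested genes. For the other genes, with 2 libraries per group in a set, small changes could be missed.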
